A study of Mus musculus with 14 samples.

Results

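Cystatin C (Cst3) and 7 lysosomal cathepsins (Ctsa, Ctsb, Ctsd, Ctsh, Ctsl, Ctss and Ctsz) were followed in mouse hippocampal cells sorted for green fluorescent protein (GFP). The 8 genes were found by their Ensembl identifiers among the 43346 genes of the count table, and all 8 passed the filter on low counts that left 18676 genes for testing. They were chosen by name with results of these same libraries already known, so their values, fold changes and adjusted p-values are a description of these libraries. The sources used here do not give the values that led to the choice.

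The cells were live GFP-positive cells from wild-type C57BL/6 mice at day 14, which the labels call adult-born granule cells, the neurons that the dentate gyrus goes on making in adult life. DREADD Pilo (3 libraries) came from mice that received scopolamine methyl nitrate and terbutaline and then pilocarpine (300 mg/kg), which stimulates muscarinic receptors and brings on status epilepticus, with a DREADD in the labelled cells. The DREADD is a designer receptor that silences neurons when its ligand CNO is given. The library names of DREADD Pilo give it as hM4Di, and those of DREADD Sham name no receptor type. DREADD Sham (4 libraries) had the DREADD and no seizures, CAG-GFP Pilo (4 libraries) had GFP alone and seizures, and CAG-GFP Sham (3 libraries) had GFP alone and no seizures. All 4 groups received CNO, so no group shows the cells without that ligand, and the seizures were ended with diazepam. The CAG promoter is active in most cell types. The sources used here name neither the promoter in front of the DREADD nor the age of the mice, and the labels do not say whether the libraries of a group came from separate mice. The p-values therefore measure the spread between libraries, which may be technical.

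The libraries held between 10613291 and 38614639 counts. The libraries fall into 2 sets, called name styles here. Names of the first style are capital letters and a number alone. The second style takes in all other names, which have several forms, some differing from the first in letter case only. The share of counts on pseudogenes was 0.117 to 0.2% in the 7 libraries of the first style. It was 4.33 to 8.12% in the 7 of the second. Name style is thus a label for these 2 sets, and what sets them apart was not tested. All 3 CAG-GFP Sham libraries had the first style and all 3 DREADD Pilo libraries the second, so name style and group cannot be told apart between those groups. DREADD Sham 1 and 2 and CAG-GFP Pilo 3 and 4 had the first style, and the rest of those groups had the second. Summed markers of neuroblasts and immature neurons were 25.7 to 639.6 CPM (counts per 1e6 counts, scaled by TMM factors) in DREADD Pilo, 996 to 2139 in DREADD Sham, 623 to 1563 in CAG-GFP Pilo and 426 to 491 in CAG-GFP Sham. Of the 12 markers, Eomes and Igfbpl1 were at 0 throughout CAG-GFP Sham, and the other 10 were detected in that group. Eomes was also at 0 in DREADD Sham 1, 2 and 3 and CAG-GFP Pilo 1, 2 and 4, and Igfbpl1 in CAG-GFP Pilo 4. Summed markers of mature granule cells were 261 to 794 CPM in DREADD Pilo and 241 to 1031 in DREADD Sham. They were 475 to 1423 CPM in CAG-GFP Pilo and 198 to 217 in CAG-GFP Sham, where C1ql2 and Plk5 were at 0 throughout. In DREADD Pilo 3 Prox1, C1ql2, Ablim3, Rbfox3 and Grin2a were at 0. Of the immature set, Dcx, Neurod1, Neurod2, Tubb3, Calb2, Tbr1 and Neurod6 were at 0 there. Both Dcx and Prox1 were also at 0 in CAG-GFP Pilo 4, and Dcx in CAG-GFP Sham 1. Some other markers of both sets were at 0 in other libraries. Markers of microglia, astrocytes and oligodendrocytes were detected in all 4 groups, with 199 to 30984 CPM summed over 15 microglial markers in DREADD Pilo and 3791 to 3946 in CAG-GFP Sham. DREADD Pilo 3 stood apart, with 193167 CPM on markers of ependyma and choroid plexus and the lowest microglial sum of the 14 libraries. The ependyma and choroid plexus sum was 17297 and 17401 CPM in DREADD Sham 1 and 2 and 9806 CPM in CAG-GFP Pilo 3. It was 350 to 2912 CPM in the remaining libraries. The mitochondrial share of counts was 2.58, 4.50 and 25.8% in DREADD Pilo, 2.21 to 4.90% in DREADD Sham, 2.06 to 13.9% in CAG-GFP Pilo and 11.6 to 12.7% in CAG-GFP Sham. CAG-GFP Pilo 4 had 9372 detected genes, against 14512 to 20863 in the other 13 libraries.

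Lysosomal cathepsins are proteases made as inactive precursors, sorted to the lysosome by mannose 6-phosphate receptors and activated there by cleavage in acid. Cathepsins B, H, L, S and Z are cysteine proteases, cathepsin D is an aspartic protease, and cathepsin A is a serine carboxypeptidase that also protects a lysosomal galactosidase and a sialidase. Cystatin C is a small secreted protein that blocks cysteine cathepsins and does not block cathepsin D. In the brain Cst3 transcripts are known to be abundant in astrocytes and microglia, and cathepsin S is known as a microglial and macrophage protease.

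Cst3 (ENSMUSG00000027447.6) lies on chromosome 2 at 148871722 to 148875692, minus strand (build GRCm38, gene extents from GENCODE), and Ctsd on chromosome 7 at 142375911 to 142388038, minus strand. The 250 bases before the start of each, and before the downstream of 2 annotated starts of Ctsa, are shown from RefSeq (GRCm38.p6) because they differ in a sequence tied to lysosomal genes. Capitals mark the E-box CACGTG and the GC box GGGCGG or its complement CCGCCC. The windows lie at chr2:148875513-148875762 on the minus strand for Cst3, at chr7:142387828-142388077 on the minus strand for Ctsd and at chr2:164833523-164833772 on the plus strand for Ctsa. These RefSeq starts lie inside the GENCODE gene extents. Most of the Cst3 and Ctsd windows and the whole Ctsa window therefore fall within those extents.
Cst3: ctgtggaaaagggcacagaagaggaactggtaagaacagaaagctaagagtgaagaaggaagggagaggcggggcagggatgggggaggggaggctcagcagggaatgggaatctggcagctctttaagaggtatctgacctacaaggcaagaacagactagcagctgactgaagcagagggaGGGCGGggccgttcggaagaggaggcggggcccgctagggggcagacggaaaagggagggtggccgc
Ctsd: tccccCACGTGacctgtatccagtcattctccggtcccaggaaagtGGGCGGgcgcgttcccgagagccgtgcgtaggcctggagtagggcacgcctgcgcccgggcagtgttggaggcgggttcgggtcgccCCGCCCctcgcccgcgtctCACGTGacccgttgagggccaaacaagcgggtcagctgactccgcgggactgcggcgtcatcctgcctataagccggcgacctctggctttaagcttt
Ctsa: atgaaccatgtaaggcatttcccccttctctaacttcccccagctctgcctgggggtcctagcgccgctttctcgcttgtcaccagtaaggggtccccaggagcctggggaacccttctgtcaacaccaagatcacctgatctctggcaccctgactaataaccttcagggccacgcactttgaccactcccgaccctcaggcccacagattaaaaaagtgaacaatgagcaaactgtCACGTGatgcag
The Ctsd window held the E-box 2 times, beginning 245 and 98 bases before the RefSeq start. The nearer copy, which falls inside the GENCODE extent of Ctsd, lay within TCACGTGA, the centre of the CLEAR element that the lysosomal regulator TFEB binds. The Ctsa window held 1 E-box, beginning 12 bases before the RefSeq start and also within TCACGTGA. The upstream Ctsa window held none of these motifs. The Cst3 window held no E-box and 1 GC box, the Ctss and Ctsz windows held no E-box, and the Ctsl window held 1 E-box outside TCACGTGA. Of 32851 RefSeq promoter windows of this length, 6.02% held CACGTG and 0.785% held TCACGTGA, read on both strands, every TCACGTGA being counted among the E-boxes too, and 32.7% held GGGCGG. Windows were matched for 6 of the 8 genes. A match of letters is a description of the window and not a binding site.

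Cst3 was highest in CAG-GFP Sham. It had 14445, 14050.1 and 6901 CPM in the 3 DREADD Pilo libraries, 6475, 3214, 4059 and 6600.3 CPM in the 4 DREADD Sham libraries, 15251, 14344, 5343 and 10714 CPM in the 4 CAG-GFP Pilo libraries, and 85231, 88368 and 104977 CPM in the 3 CAG-GFP Sham libraries. Every CAG-GFP Sham library lay above every other library, while DREADD Pilo and CAG-GFP Pilo overlapped and so did CAG-GFP Pilo and DREADD Sham. The means were 11799 ± 4246 CPM in DREADD Pilo (SD, n = 3), 5087 ± 1711 in DREADD Sham (n = 4), 11413 ± 4496 in CAG-GFP Pilo (n = 4) and 92859 ± 10612 in CAG-GFP Sham (n = 3). Cst3 took 0.494 to 1.58% of all counts in DREADD Pilo, 0.414 to 0.794% in DREADD Sham, 0.631 to 1.5% in CAG-GFP Pilo and 6.06 to 7.17% in CAG-GFP Sham. By counts, which are not set per length, it ranked first in each CAG-GFP Sham library and between 3 and 14 in the other 11.

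Cst3 fell in all 3 comparisons with CAG-GFP Sham, which share those 3 libraries. In edgeR's quasi-likelihood test over all 14 libraries with Benjamini-Hochberg adjustment, its log2 fold change was -3.02 ± 0.51 (SE) in CAG-GFP Pilo against CAG-GFP Sham, an 8.14-fold lower level with an edgeR adjusted p of 0.0272. It was -4.19 ± 0.53 in DREADD Sham against CAG-GFP Sham (18.3-fold, edgeR adjusted p = 0.0061) and -2.98 ± 0.57 in DREADD Pilo against CAG-GFP Sham (7.87-fold, edgeR adjusted p = 0.048). Leaving out 1 library at a time, the call in CAG-GFP Pilo against CAG-GFP Sham held in 4 of 14 fits, those without DREADD Sham 4 or without 1 of the DREADD Pilo libraries, and was lost without any other library (edgeR adjusted p 0.00417 to 0.119). In DREADD Pilo against CAG-GFP Sham it held in 2 of 14, without CAG-GFP Pilo 3 and without DREADD Pilo 3, and was lost without any other library (edgeR adjusted p 0.0287 to 0.17). For DREADD Sham against CAG-GFP Sham it held in 14 of 14 (edgeR adjusted p 0.000935 to 0.0445). Among libraries of the first name style alone the log2 fold change was -3.54 ± 0.43 in CAG-GFP Pilo against CAG-GFP Sham (edgeR adjusted p = 0.0056) and -4.28 ± 0.45 in DREADD Sham against CAG-GFP Sham (edgeR adjusted p = 0.00359).

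The 8 genes are read against how many genes of any kind passed. At an adjusted p under 0.05, edgeR called 0.241% of the 18676 genes in CAG-GFP Pilo against CAG-GFP Sham, 0.3% in DREADD Sham against CAG-GFP Sham and 0.225% in DREADD Pilo against CAG-GFP Sham, and Cst3 was the 1 gene of the 8 called in each. It called 0% in DREADD Pilo against CAG-GFP Pilo, 0% in DREADD Pilo against DREADD Sham and 0% in the interaction, with 1001, 967 and 2191 genes at an unadjusted p under 0.05, and limma voom called 0, 0 and 37 genes there. DESeq2, which made many more calls, marked 11.9%, 14.2% and 14.6% of genes in the 3 comparisons with CAG-GFP Sham in the same order, 0.916% in DREADD Pilo against CAG-GFP Pilo, 0.846% in DREADD Pilo against DREADD Sham and 7.8% in the interaction. Of the 8 genes DESeq2 called Cst3 and Ctsd in CAG-GFP Pilo against CAG-GFP Sham, Cst3 and Ctsl in DREADD Sham against CAG-GFP Sham, Cst3 and Ctsd in DREADD Pilo against CAG-GFP Sham, and Cst3 and Ctsl in the interaction. Neither tool called any of the 8 in DREADD Pilo against CAG-GFP Pilo or in DREADD Pilo against DREADD Sham.

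**Figure D1:**
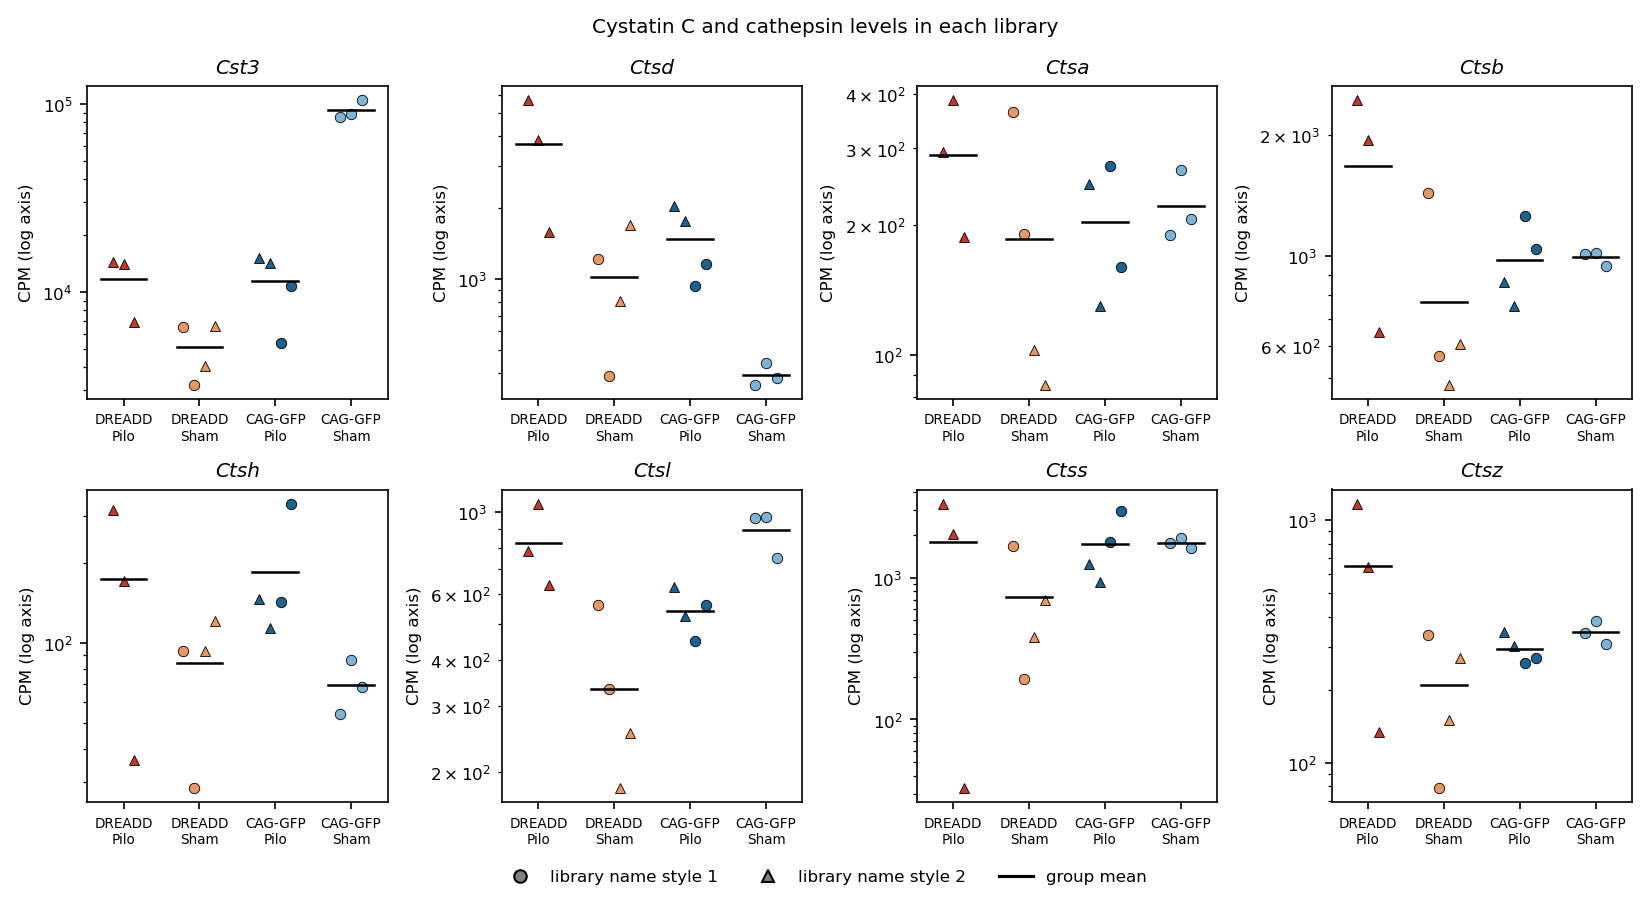
CPM (log axis) of the 8 genes in each of the 14 libraries, by group, with circles and triangles for the 2 styles of library name and a bar at the group mean. Cst3 lies between 85231 and 104977 CPM in CAG-GFP Sham and between 3214 and 15251 CPM in the other 11 libraries, whereas Ctsd has its lowest group mean, 393 CPM, in CAG-GFP Sham.

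Markers of astrocytes were also highest in CAG-GFP Sham. Their sum over 14 genes was 1481 to 4263 CPM in DREADD Pilo, 2259 to 5781 in DREADD Sham, 889.995 to 7222 in CAG-GFP Pilo and 29936 to 31339 in CAG-GFP Sham. All 14 were detected in 13 libraries, and Aqp4, Aldh1l1 and Mlc1 were at 0 in CAG-GFP Pilo 4. All 14 had negative log2 fold changes in each comparison with CAG-GFP Sham (13 of 14 for CAG-GFP Pilo with library totals). Against CAG-GFP Sham, edgeR called 2 of them lower for DREADD Pilo, 1 for DREADD Sham and 1 for CAG-GFP Pilo. Cst3 per unit of that sum was 3.30 to 6.32 in DREADD Pilo, 0.702 to 2.87 in DREADD Sham, 2.11 to 10.4 in CAG-GFP Pilo and 2.85 to 3.35 in CAG-GFP Sham. The CAG-GFP Sham ratio thus lay inside the range of the other libraries. Fewer cells of a type and less RNA per cell cannot be told apart in libraries of pooled cells, and the part of astrocyte transcripts in the Cst3 level was not tested. Relative to the microglial sum, Cst3 was 0.466, 0.971 and 34.6 in DREADD Pilo, 0.531 to 5.17 in DREADD Sham, 1.11 to 1.43 in CAG-GFP Pilo and 21.6 to 27.5 in CAG-GFP Sham, so that this ratio kept CAG-GFP Sham above all libraries except DREADD Pilo 3. Oligodendrocyte markers stood the other way round, with sums of 421 to 44853 CPM in DREADD Pilo, 19371 to 41577 in DREADD Sham, 1414 to 38644 in CAG-GFP Pilo and 620.2 to 720.1 in CAG-GFP Sham. All 12 had positive log2 fold changes in each comparison with CAG-GFP Sham and none was called in edgeR, with medians of 4.47 for DREADD Pilo, 4.79 for DREADD Sham and 4.12 for CAG-GFP Pilo. Markers of their precursors summed to 47.9 to 1712 CPM in DREADD Pilo, 426 to 989 in DREADD Sham, 139 to 1120.3 in CAG-GFP Pilo and 25.2 to 45.5 in CAG-GFP Sham, where Cspg4 and Neu4 were at 0, and edgeR called 3 of 8 higher in each of the 3 groups. The part of these cells, or of the mitochondrial share, in the Cst3 and Ctsd values was not tested.

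Among the groups other than CAG-GFP Sham the Cst3 means differed less. Its log2 fold change was 0.048 ± 0.49 in DREADD Pilo against CAG-GFP Pilo (edgeR adjusted p = 0.999). In DREADD Pilo against DREADD Sham it was 1.21 ± 0.49 with an edgeR adjusted p of 0.954, and all 3 DREADD Pilo libraries lay above all 4 DREADD Sham libraries in TMM-scaled CPM but not in CPM of the library totals. The interaction, which takes the seizure difference in GFP-only cells from that in DREADD cells, was 4.24 ± 0.70 for Cst3 on the log2 scale with an edgeR adjusted p of 0.194. That adjusted p was 1.01e-06 under DESeq2 and 0.000323 under limma voom. In edgeR it was 0.00694 with no filter, 0.0212 with name style as a covariate and 0.0182 without DREADD Pilo 3, and it lay between 1.01e-06 and 0.705 across the alternatives.

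Ctsd had its lowest mean in CAG-GFP Sham. The transcript of cathepsin D, the main aspartic protease of the lysosome, had 5686, 3863 and 1583 CPM in DREADD Pilo, 1211, 391, 804 and 1687 CPM in DREADD Sham, 2029.9, 1759, 930.1 and 1156 CPM in CAG-GFP Pilo, and 358, 440.4 and 379.8 CPM in CAG-GFP Sham. DREADD Pilo and CAG-GFP Pilo each lay wholly above CAG-GFP Sham, and DREADD Sham overlapped it through DREADD Sham 2. The means were 3711 ± 2056 CPM in DREADD Pilo (SD, n = 3), 1023 ± 555 in DREADD Sham (n = 4), 1469 ± 512 in CAG-GFP Pilo (n = 4) and 393 ± 42.7 in CAG-GFP Sham (n = 3), and neighbours in the order of the means overlapped throughout.

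The log2 fold change of Ctsd was 1.90 ± 0.60 in CAG-GFP Pilo against CAG-GFP Sham (edgeR adjusted p = 0.26), 1.38 ± 0.58 in DREADD Sham against CAG-GFP Sham (edgeR adjusted p = 0.247) and 3.24 ± 0.65 in DREADD Pilo against CAG-GFP Sham (edgeR adjusted p = 0.0721). None of these passed 0.05 in edgeR. Without DREADD Pilo 3 the last was 3.54 with an edgeR adjusted p of 0.0209, and across the alternatives its adjusted p lay between 9.95e-06 and 0.305. Ctsd also had positive log2 fold changes of 1.34 ± 0.56 in DREADD Pilo against CAG-GFP Pilo (edgeR adjusted p = 0.882) and 1.86 ± 0.56 in DREADD Pilo against DREADD Sham (edgeR adjusted p = 0.954). Within name styles it was 1.39 ± 0.42 in CAG-GFP Pilo against CAG-GFP Sham in the first style, and 0.98 ± 0.75 in DREADD Pilo against CAG-GFP Pilo and 1.57 ± 0.76 in DREADD Pilo against DREADD Sham in the second.

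The ratio of Cst3 to Ctsd counts needs no scaling between libraries. It was 2.54, 3.64 and 4.36 in DREADD Pilo, 5.35, 8.23, 5.05 and 3.91 in DREADD Sham, 7.51, 8.15, 5.74 and 9.27 in CAG-GFP Pilo, and 238, 201 and 276 in CAG-GFP Sham. The CAG-GFP Sham libraries lay far above the other 11, among which the ratio varied less than the levels of either gene, and CAG-GFP Pilo lay wholly above DREADD Pilo. Per exon length the ratio was 4.72 to 8.09 in DREADD Pilo, 7.27 to 15.3 in DREADD Sham, 10.7 to 17.2 in CAG-GFP Pilo and 373 to 513 in CAG-GFP Sham. Set against the 5 cysteine cathepsins, summed per exon length, Cst3 was 2.97, 4.51 and 16.5 times as abundant in DREADD Pilo, 2.83 to 7.31 times in DREADD Sham, 2.36 to 10.1 times in CAG-GFP Pilo and 35.0 to 48.9 times in CAG-GFP Sham.

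**Figure D2:**
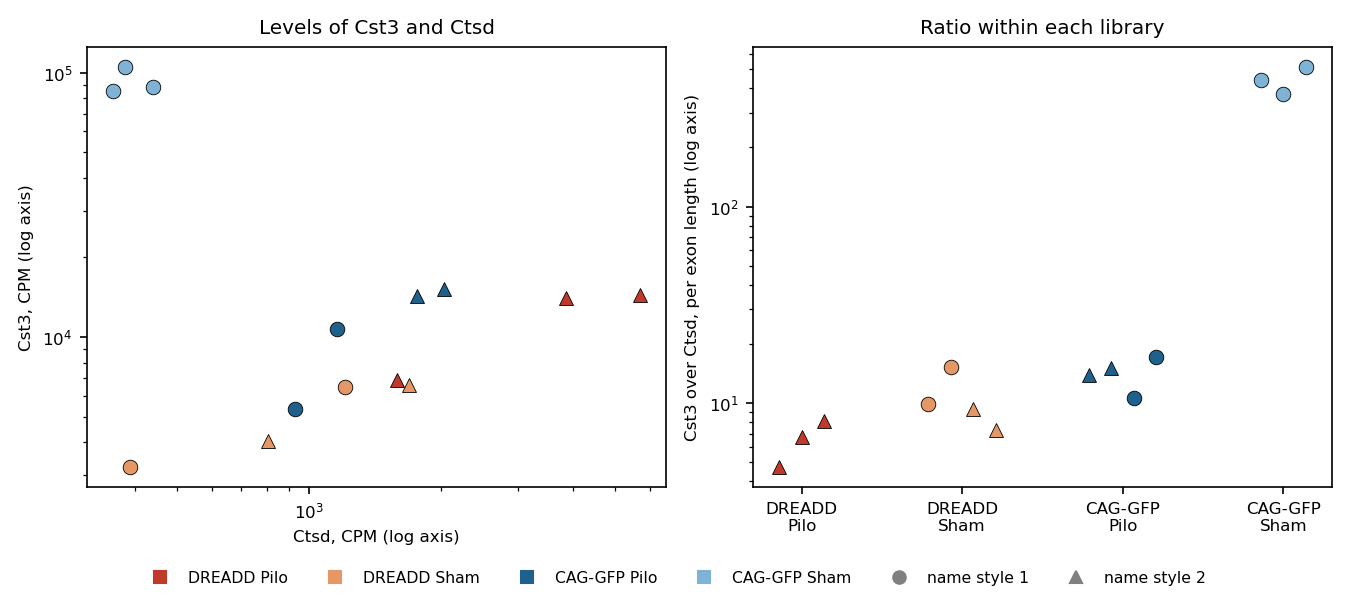
Left, Cst3 against Ctsd in CPM (both axes log) for the 14 libraries. Right, the ratio of Cst3 to Ctsd per exon length (log axis) by group, with colours for groups and circles and triangles for the 2 styles of library name; the 3 CAG-GFP Sham libraries lie between 373 and 513 and the other 11 between 4.72 and 17.2.

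The scale used for the libraries moved the size of these values. TMM factors ran from 0.683 in CAG-GFP Sham 3 to 1.39 in CAG-GFP Pilo 4, and plain library totals in their place shifted the median log2 fold change of all genes by 0.67 for CAG-GFP Pilo, 0.77 for DREADD Sham and 0.45 for DREADD Pilo, each against CAG-GFP Sham, and by -0.19 in DREADD Pilo against CAG-GFP Pilo and -0.30 in DREADD Pilo against DREADD Sham. Relative to the median of all genes, Cst3 stood at -3.43 with TMM and -3.44 with library totals in CAG-GFP Pilo against CAG-GFP Sham, and at -3.64 and -3.56 in DREADD Pilo against CAG-GFP Sham. Ctsd stood 2.58 above that median with TMM and 2.68 above it with library totals in DREADD Pilo against CAG-GFP Sham. With library totals Cst3 was called in edgeR only in DREADD Sham against CAG-GFP Sham (adjusted p = 0.0301), and Ctsd was called in DREADD Pilo against CAG-GFP Sham (adjusted p = 0.0417).

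Of the cysteine cathepsins, Ctss was the most variable. Cathepsin S cuts the invariant chain in antigen-presenting cells, and its gene lies on chromosome 3 at 95526786 to 95556403, plus strand. It had 3313, 2032 and 32.8 CPM in DREADD Pilo, 1672, 192, 379 and 691 CPM in DREADD Sham, 1237, 929.6, 1771 and 2932 CPM in CAG-GFP Pilo, and 1752, 1889.7 and 1622 CPM in CAG-GFP Sham. All 4 groups overlapped, the 3 CAG-GFP Sham libraries lay close together, and DREADD Pilo held the lowest library of all. The highest was DREADD Pilo 1 with TMM and CAG-GFP Pilo 4 with library totals, at 3631 CPM in DREADD Pilo 1 and 4066 CPM in CAG-GFP Pilo 4. No Ctss fold change passed the test: the log2 values against CAG-GFP Sham were -0.031 ± 0.97 for CAG-GFP Pilo (edgeR adjusted p = 0.998), -1.26 ± 0.96 for DREADD Sham (0.538) and 0.031 ± 1.03 for DREADD Pilo (unadjusted p = 0.977). The mean of 1793 CPM in DREADD Pilo became 1032 without DREADD Pilo 1, and that of 734 CPM in DREADD Sham became 421 without DREADD Sham 1.

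DREADD Pilo 3, with the lowest Ctss, also had the lowest microglial sum, 199 CPM. The highest sum was 30984 CPM in DREADD Pilo 1, and CAG-GFP Pilo 4 had 8065 CPM. Ctss per unit of that sum was 0.107 to 0.165 in DREADD Pilo, 0.0556 to 0.31 in DREADD Sham, 0.0929 to 0.366 in CAG-GFP Pilo and 0.424 to 0.499 in CAG-GFP Sham. CAG-GFP Sham lay above the other 11 libraries on this ratio although not on the Ctss level. Ctsd per unit of the microglial sum was 0.184, 0.267 and 7.94 in DREADD Pilo, 0.136 to 0.629 in DREADD Sham, 0.143 to 0.192 in CAG-GFP Pilo and 0.0907 to 0.116 in CAG-GFP Sham. The high value belonged to DREADD Pilo 3, where Ctsd stayed at 1583 CPM with few microglial transcripts and many of choroid plexus. The part of microglial or choroid plexus transcripts in these levels was not tested.

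**Figure D3:**
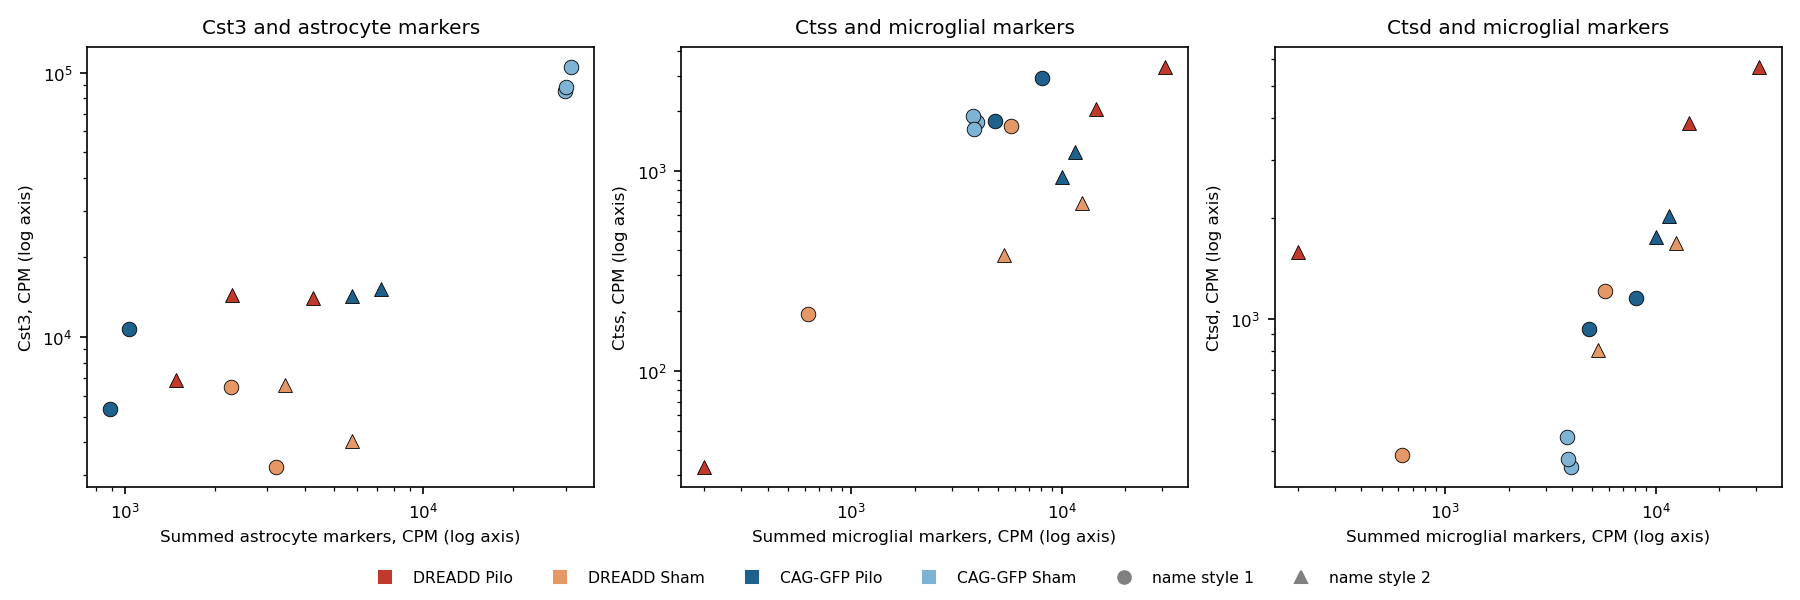
Cst3 against the summed astrocyte markers, and Ctss and Ctsd against the summed microglial markers, in CPM (all axes log) for the 14 libraries, coloured by group. CAG-GFP Sham stands at the upper right in the Cst3 panel, with astrocyte sums of 29936 to 31339 CPM, and DREADD Pilo 3 stands alone at a microglial sum of 199 CPM.

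Ctsl, the gene of the broad endopeptidase cathepsin L, lies on chromosome 13 at 64359337 to 64370890, minus strand. It had 786, 1051 and 635 CPM in DREADD Pilo, 562, 334, 181 and 255 CPM in DREADD Sham, 626, 523, 449 and 562 CPM in CAG-GFP Pilo, and 965, 968 and 753 CPM in CAG-GFP Sham. DREADD Pilo and CAG-GFP Sham overlapped, DREADD Pilo lay wholly above CAG-GFP Pilo, and CAG-GFP Pilo and DREADD Sham overlapped. With library totals in place of TMM, DREADD Pilo no longer lay wholly above CAG-GFP Pilo or DREADD Sham, nor CAG-GFP Sham above CAG-GFP Pilo or DREADD Sham. The log2 fold change of Ctsl was -0.73 ± 0.46 in CAG-GFP Pilo against CAG-GFP Sham (edgeR adjusted p = 0.434), where it was -0.035 with library totals, and -1.43 ± 0.46 in DREADD Sham against CAG-GFP Sham (edgeR adjusted p = 0.205). It was 1.31 ± 0.46 in DREADD Pilo against DREADD Sham (edgeR adjusted p = 0.954) and 2.04 ± 0.65 in the interaction (edgeR adjusted p = 0.371).

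Ctsb, on chromosome 14 at 63122462 to 63145923, plus strand, encodes cathepsin B, an abundant cysteine protease that can also trim peptides from their ends. It had 2434, 1935 and 648 CPM in DREADD Pilo, 1432, 565, 481 and 607 CPM in DREADD Sham, 862, 753, 1259 and 1043 CPM in CAG-GFP Pilo, and 1014, 1021 and 945 CPM in CAG-GFP Sham. The groups overlapped, with 2 high DREADD Pilo libraries, 1 high DREADD Sham library and a narrow CAG-GFP Sham group. Its exons share 774 bases with those of Fdft1, and the counting strand is not given in the sources used here, so reads of that stretch could belong to either gene.

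Ctsz, on chromosome 2 at 174427493 to 174439039, minus strand, encodes cathepsin Z, a carboxypeptidase. It had 1168, 641 and 134 CPM in DREADD Pilo, 338, 78.8, 151 and 271 CPM in DREADD Sham, 345, 302, 257 and 271 CPM in CAG-GFP Pilo, and 344, 383 and 309.7 CPM in CAG-GFP Sham. DREADD Pilo overlapped every other group, and its mean of 647 CPM became 387 without DREADD Pilo 1. Ctsz gave the 1 fold change given a direction that turned with a setting, DREADD Sham against CAG-GFP Sham, at -0.72 ± 0.63 with TMM and 0.047 with library totals.

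Ctsh, on chromosome 9 at 90054152 to 90076089, plus strand, encodes cathepsin H, an aminopeptidase. Per exon length it had the lowest mean of the 7 cathepsins in every group, 38.6 ± 30.9 CPM per kilobase in DREADD Pilo, 18.7 ± 8.73 in DREADD Sham, 40.8 ± 22.2 in CAG-GFP Pilo and 15.4 ± 3.56 in CAG-GFP Sham (SD). Its levels were 314, 171 and 36.3 CPM in DREADD Pilo, 93.4, 28.6, 93.3 and 121 CPM in DREADD Sham, 146, 114, 143 and 332 CPM in CAG-GFP Pilo, and 54.0, 85.9 and 68.1 CPM in CAG-GFP Sham. CAG-GFP Pilo lay wholly above CAG-GFP Sham, with a log2 fold change of 1.41 ± 0.72 that did not pass the test (edgeR adjusted p = 0.347). The DREADD Pilo mean of 174 CPM became 104 without DREADD Pilo 1.

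Ctsa, on chromosome 2 at 164832873 to 164841032, plus strand, had 294, 388 and 187 CPM in DREADD Pilo, 365, 190.2, 102 and 85.4 CPM in DREADD Sham, 249, 129.8, 273 and 159.8 CPM in CAG-GFP Pilo, and 189, 267 and 206 CPM in CAG-GFP Sham. Its groups overlapped in every comparison, and its log2 fold change was the smallest of the 8 in DREADD Pilo against DREADD Sham, 0.64 ± 0.56 (edgeR adjusted p = 1). Its exons share 495 bases with Pltp and 324 with Neurl2.

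All 8 genes had positive log2 fold changes in DREADD Pilo against DREADD Sham. The values ran from 0.64 for Ctsa to 1.86 for Ctsd, with Ctsz at 1.63 ± 0.64, Ctss at 1.29 ± 0.96, Cst3 at 1.21 ± 0.49, Ctsb at 1.12 ± 0.53 and Ctsh at 1.05 ± 0.68. Their median was 1.25, against 0.07 over all genes tested, and none passed the edgeR test. Each exceeded its SE, and the sign did not turn in any of the 23 alternatives run for each. The libraries of both groups still overlapped for all but Cst3 and Ctsl in TMM-scaled CPM, and for all 8 in CPM of the library totals. How many genes of any kind separate these groups was not counted, so the separation of Cst3 and Ctsl cannot be set against that share. Without DREADD Pilo 1 the log2 fold change was 0.45 for Ctss and 0.28 for Ctsh. In DREADD Pilo against CAG-GFP Pilo 7 of the 8 were positive with a median of 0.56, against 0.28 over all genes, but only 4 of the 8 exceeded their SE, and with library totals 5 of the 8 were positive. All 15 microglial markers were positive in DREADD Pilo against DREADD Sham too, with a median of 0.98, and 13 of 15 in DREADD Pilo against CAG-GFP Pilo, with a median of 0.67. Their part in the cathepsin values was not tested. Against CAG-GFP Sham, 6 of the 8 were positive for DREADD Pilo (median 0.57 beside 0.66 over all genes), 2 of the 8 for DREADD Sham (-0.54 beside 0.53) and 2 of the 8 for CAG-GFP Pilo (-0.077 beside 0.41). The values exceeded their SE for 5, 5 and 4 of the 8 in these comparisons. With library totals the numbers of positive values were 7, 5 and 6 of the 8, so the signs of the smaller values depended on the scale. The medians over all genes with library totals were 1.11, 1.30 and 1.08 in the same order.

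**Figure D4:**
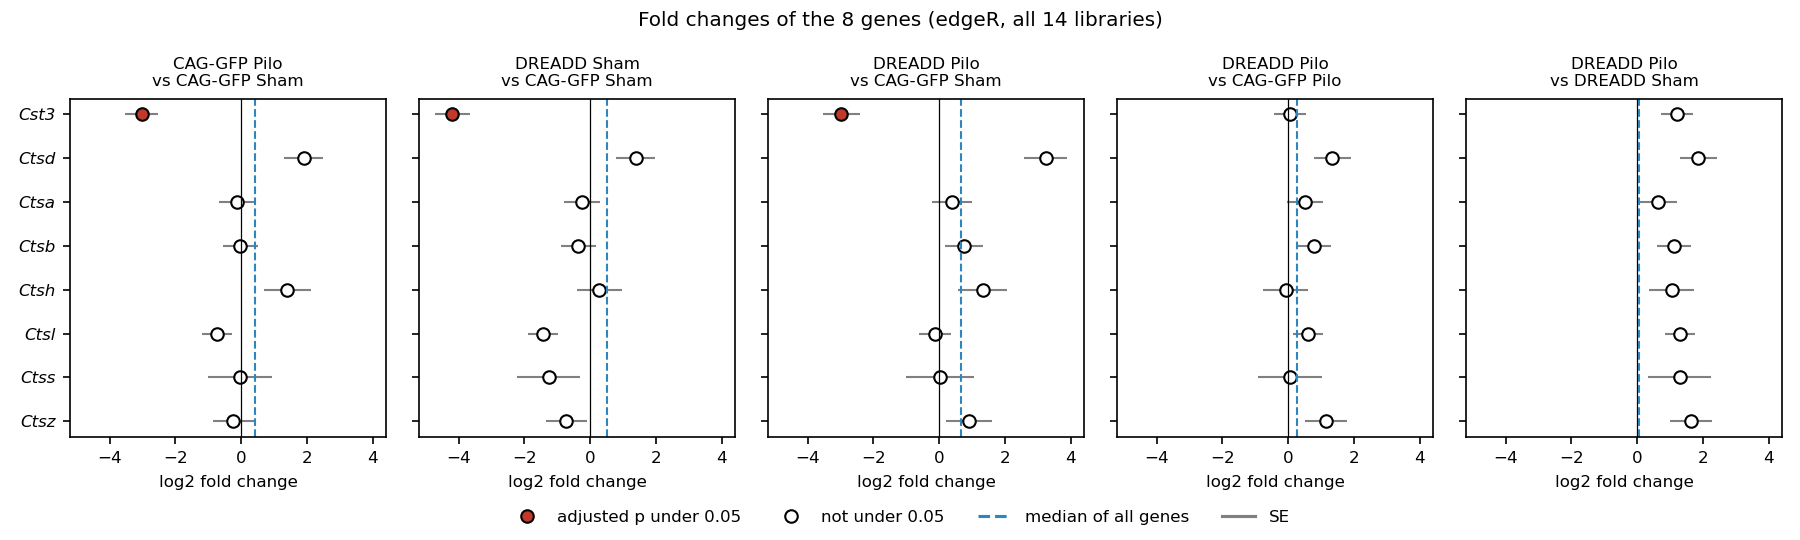
Log2 fold changes of the 8 genes in 5 comparisons (edgeR, all 14 libraries), with bars of 1 SE, red points for adjusted p under 0.05 and a dashed line at the median of all genes. The red points are Cst3 at -3.02, -4.19 and -2.98 in the 3 comparisons with CAG-GFP Sham, and in DREADD Pilo against DREADD Sham all 8 points lie to the right of 0.

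Per exon length, Ctss and Ctsd together made up most of the 7 cathepsins' transcripts. Ctss held 38.6, 35.7 and 2.32% of their summed CPM per kilobase in DREADD Pilo, 25.6 to 51.3% in DREADD Sham, 36.0 to 67.4% in CAG-GFP Pilo and 62.2 to 62.9% in CAG-GFP Sham. Ctsd held 38.2, 39.3 and 64.6% in DREADD Pilo, 21.4 to 44.9% in DREADD Sham, 15.3 to 39.4% in CAG-GFP Pilo and 7.43 to 8.50% in CAG-GFP Sham. The Ctsd share was lower in each CAG-GFP Sham library than in any other library, and Ctsd exceeded Ctss in DREADD Pilo 2 and 3, DREADD Sham 2, 3 and 4 and CAG-GFP Pilo 2. Within CAG-GFP Pilo and DREADD Sham the share went with name style: it was 15.3 and 17.6% in the first style and 36.9 and 39.4% in the second for CAG-GFP Pilo, and 21.4 and 30.0% in the first and 39.1 and 44.9% in the second for DREADD Sham. First-style libraries of both groups still lay above the CAG-GFP Sham libraries of that style. Ctsh held 0.586 to 2.37% in all 14 libraries.

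**Figure D5:**
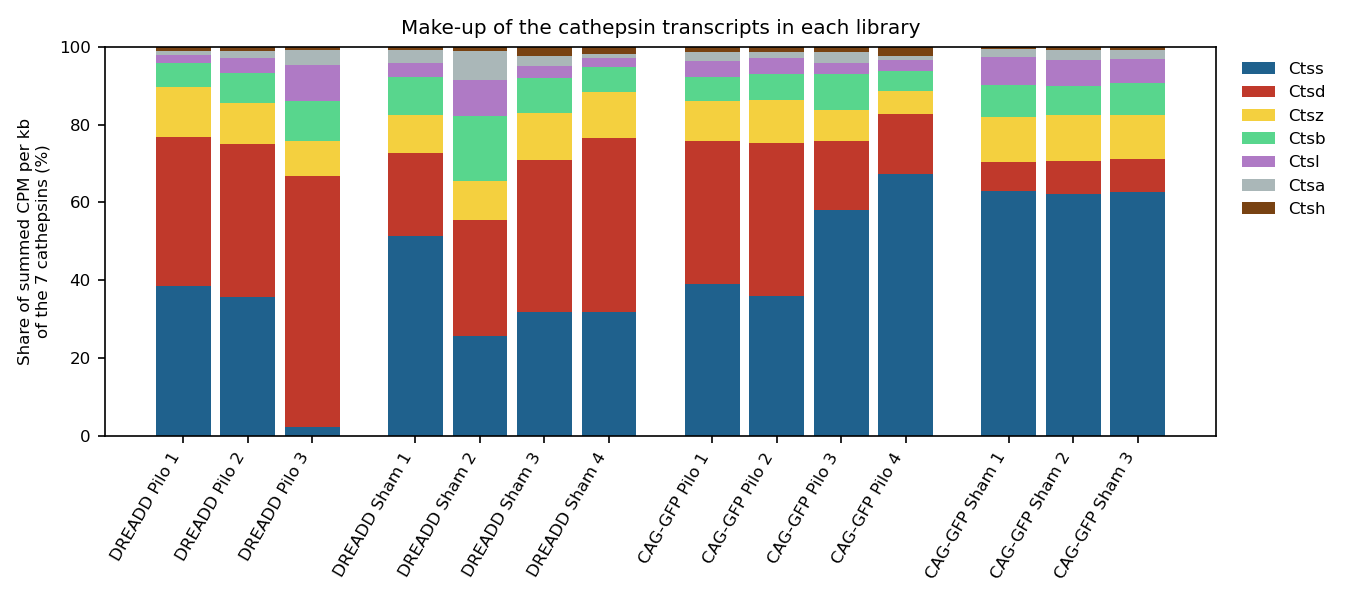
Share of each of the 7 cathepsins in their summed CPM per kilobase of exon, in percent, for each library, with the groups in blocks. Ctsd takes 7.43 to 8.50% in the CAG-GFP Sham libraries and 64.6% in DREADD Pilo 3, where Ctss takes 2.32%.

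Genes whose levels ran most like each of the 8 across the 14 libraries were ranked among 11474 genes by the root mean square difference of centred log2 CPM. For Cst3 they were S100a13 at 0.57, Id2 at 0.64 and Tst at 0.73, beside a spread of 1.59 for Cst3 about its own mean, and the nearest of the other 7 genes was Ctsl at 1.19. For Ctss they included Cd68 at 0.49 and Gngt2 at 0.52, beside a spread of 1.73. For Ctsd they were F11r at 0.44, Zfp652 at 0.62 and Mcfd2 at 0.67. Ctsa and Ctsb were each other's nearest among the 8, at 0.41, closer than any other protein-coding gene was to either. For Ctsl the nearest was Cwf19l2 at 0.48, for Ctsz Syngr1 at 0.47, for Ctsh Atrip at 0.46, for Ctsb Itm2b at 0.46 and for Ctsa Vps35 at 0.45. The CPM of all genes in a library share that library's total and scaling factor, and the ranking is a description.

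None of the other cathepsin or cystatin genes passed the edgeR test in any comparison, with 6 of 7 cathepsins and 3 of 18 cystatins in the table abundant enough to test. Ctsc, whose product activates granule serine proteases, averaged 586 ± 363 CPM in DREADD Pilo (SD, n = 3), 226 ± 137 in DREADD Sham (n = 4), 167 ± 72.2 in CAG-GFP Pilo (n = 4) and 98.7 ± 11.2 in CAG-GFP Sham (n = 3), with its highest and lowest means in the same groups as those of Ctsd. Ctso averaged 172 ± 19.3 CPM in DREADD Pilo, 137 ± 75.9 in DREADD Sham, 123 ± 57.6 in CAG-GFP Pilo and 342 ± 30.9 in CAG-GFP Sham. Each CAG-GFP Sham library lay above the other 11 in TMM-scaled CPM but not in CPM of the library totals. Cstb, the gene of the intracellular inhibitor cystatin B, had its highest mean in CAG-GFP Sham as Cst3 did, with 228 ± 156, 119.6 ± 17.8 and 168 ± 59.1 CPM in DREADD Pilo, DREADD Sham and CAG-GFP Pilo and 510.1 ± 44.2 CPM in CAG-GFP Sham. Its log2 fold change was -2.09 ± 0.51 in DREADD Sham against CAG-GFP Sham (edgeR adjusted p = 0.102). Cst7, which encodes cystatin F, an inhibitor of immune cells that is targeted to lysosomes, had 494, 326 and 19.6 CPM in DREADD Pilo, 33.7, 0, 0 and 4.87 CPM in DREADD Sham, 142, 103, 36.5 and 0 CPM in CAG-GFP Pilo, and 7.85, 9.66 and 23.5 CPM in CAG-GFP Sham. Its 2 highest libraries were DREADD Pilo 1 and 2, which also had the highest microglial sums. DREADD Sham 4, next in microglial sum at 12434 CPM, had only 4.87 CPM of Cst7. CAG-GFP Pilo 4, with a microglial sum of 8065 CPM, had 0. The part of microglial transcripts in the Cst7 level was not tested.

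Of the other lysosomal genes examined, edgeR called none in any of the 6 tests. Among 34 other lysosomal hydrolases, 31 had positive log2 fold changes in DREADD Pilo against DREADD Sham, with a median of 0.57 beside 0.07 over all genes, and with library totals the count was 23 of 34 and the medians 0.33 and -0.24. Among 15 lysosomal membrane genes, 12 were positive in DREADD Pilo against CAG-GFP Pilo (median 0.76 beside 0.28 over all genes) and 10 in DREADD Pilo against DREADD Sham (median 0.31 beside 0.07). Lamp2, a main glycoprotein of that membrane, averaged 928 ± 419 CPM in DREADD Pilo (SD, n = 3), 336 ± 96.8 in DREADD Sham (n = 4), 303 ± 65.8 in CAG-GFP Pilo (n = 4) and 367 ± 9.2 in CAG-GFP Sham (n = 3). Each DREADD Pilo library lay above the other 11 in TMM-scaled CPM. Cd63 averaged 52.3 ± 44.4 CPM in DREADD Pilo, 272 ± 309 in DREADD Sham, 187 ± 199 in CAG-GFP Pilo and 2711 ± 170 in CAG-GFP Sham, its highest mean being in CAG-GFP Sham, as for Cst3.

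Genes of the proton pump that acidifies the lysosome mostly had negative values in the comparisons of DREADD Pilo with CAG-GFP Pilo and DREADD Sham. Of 17 vacuolar ATPase genes, 13 had negative log2 fold changes in DREADD Pilo against CAG-GFP Pilo (median -0.79 beside 0.28 over all genes), and 11 in DREADD Pilo against DREADD Sham (median -0.28 beside 0.07). With library totals these counts were 16 and 14. Atp6v0c, a ring subunit of the pump, averaged 39.4 ± 9.51 CPM in DREADD Pilo (SD, n = 3), 728 ± 839 in DREADD Sham (n = 4), 1029.8 ± 1227 in CAG-GFP Pilo (n = 4) and 898 ± 40.5 in CAG-GFP Sham (n = 3). The SD exceeded the mean in DREADD Sham and in CAG-GFP Pilo, so libraries within each differed widely. Both of these groups hold both name styles, whereas DREADD Pilo holds the second alone. The part of name style in these pump values was not tested. Of 14 genes for delivery and activation of lysosomal enzymes, 11 were positive in DREADD Pilo against DREADD Sham (median 0.61), and 9 with library totals. Lgmn, whose product legumain cleaves cathepsin precursors, averaged 274 ± 169 CPM in DREADD Pilo (SD, n = 3), 268 ± 197 in DREADD Sham (n = 4), 331 ± 247 in CAG-GFP Pilo (n = 4) and 182 ± 36.4 in CAG-GFP Sham (n = 3), with overlap between all groups.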

How the data were processed

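Gene counts were measured in 14 SMART-Seq v4 libraries, each made from about 800 to 1000 sorted cells. The authors deposited raw counts per gene, whole numbers without normalisation. The submitters' processing notes list edgeR, R 4.1.1, Subread, featureCounts and Bowtie2 without roles, and the human build hg38, although the identifiers are those of mouse genes; the sources used here name neither a mouse build nor the strand setting. Of 43346 identifiers, 42462 matched GENCODE M21 on GRCm38, which gave symbols, positions and exon lengths.

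Counts were scaled with TMM factors and tested with edgeR 4.0.16 in R 4.3.3 (filterByExpr, glmQLFit and glmQLFTest, group as the only term, all 14 libraries in 1 fit), with Benjamini-Hochberg adjustment over 18676 genes and a threshold of 0.05. The SE of a log2 fold change is its size divided by the square root of F. A single member is described as higher or lower only where its fold change exceeds its SE (30 of 48 values), while counts of signs take in all 8. Replicate libraries all differed by more than sampling noise. The chi-square per degree of freedom was 87.3 to 94.6 in CAG-GFP Sham and 97.8 to 1141 in the other groups, while the fit shares its estimate of spread across all groups. The script was tested on simulated counts. The members and gene lists were chosen with earlier results of these data known. Named genes are the 8 members, the 3 nearest genes of each with a mean of at least 5 CPM, the most abundant genes of the lists other than cell type markers and any gene of those lists past the test, of which there was none. Cell type markers are given as sums and counts, and by name where at 0. Alternatives were RLE factors, no filter, DESeq2 1.42.0, limma voom 3.58.1, a replicate block, name style as a covariate or alone, only the groups compared, and each library left out; plain library totals were added after seeing the data. Protein sequences were not used here. The values of 1 gene that the naming rule picked are not reported here.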

Additional observations from a re-analysis of the deposited data

Results flagged for a closer look

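In groups of 4 libraries, 16 sets of 4 values were examined for a library far from the others, and chance alone marks about 1 in 20 such sets. Ctsb in DREADD Sham 1 stood at 1432 CPM, far above the 481 to 607 CPM of the other DREADD Sham libraries. Ctsh in CAG-GFP Pilo 4 stood at 332 CPM, above the 114 to 146 CPM of the other CAG-GFP Pilo libraries.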

How the results depend on the processing

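Of 677 comparisons of a result with an alternative, 632 kept their direction and side of the threshold. In CAG-GFP Pilo against CAG-GFP Sham, where edgeR called 1 of the 8 genes, DESeq2 called 2, the replicate block 0, library totals 0 and fits without 1 library 0 to 1. In DREADD Sham against CAG-GFP Sham, where it called 1, DESeq2 and limma voom called 2 each and the replicate block 0. In DREADD Pilo against CAG-GFP Sham, where it called 1, RLE factors gave 0, no filter, DESeq2 and limma voom 2 each, the replicate block 0 and fits without 1 library 0 to 2. In the interaction, where it called 0, no filter, limma voom and name style as a covariate gave 1 each, DESeq2 2, the replicate block 0 and fits without 1 library 0 to 1. In both other comparisons every setting gave 0. Ctsz in DREADD Sham against CAG-GFP Sham turned to 0.047 with library totals. The causes were not tested. Replicate numbers did not pair the libraries: over 19 same-numbered pairs the correlations of deviations ran from -0.381 to 0.115, 1 was above 0.1, and 1 of 14 libraries correlated best with its own number.

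Over all genes, leaving out 1 library moved edgeR's calls between 3 and 151 in CAG-GFP Pilo, between 6 and 260 in DREADD Sham and between 4 and 152 in DREADD Pilo, each against CAG-GFP Sham. Each of the 8 genes had at least 295 counts in every library.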
